A study of Mus musculus with 6 samples.

Results

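The genes described here build the protein-folding machinery of the endoplasmic reticulum (ER), sense its overload through the unfolded protein response, or remove misfolded proteins by ER-associated degradation (ERAD). The list held 34 mouse genes, chosen by name with earlier results of these data known, and sorted by role into chaperones, disulfide enzymes, stress sensors and effectors, and ERAD factors. Of these, 32 were measured, out of 30701 genes tested. Manf and Pdia4 were not analysed here, because their probe sets are annotated to several genes. The comparison set 3 arrays of mouse CD4+ T cells cultured without glutamine against 3 arrays of the same kind of culture with glutamine. Both groups began as naive CD4+CD25-CD62L+CD44- T cells sorted by flow cytometry. They were activated with antibodies against CD3 and CD28 and grown for 3 days in IMDM with 10% fetal bovine serum. Both received the same TH17-skewing mixture, with TGFb at 1.25 ng/ml, the interleukins IL-23 and IL-6 each at 20 ng/ml, and antibodies that block IL-12, IL-4 and IFNg, at 10 ug/ml. The labels call the arrays of a group biological replicates and do not tie them to separate mice. The p-values therefore cover array-to-array spread, which may be partly technical, and 3 arrays a group limit the precision. The labels give no mouse strain, sex or age.

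A polypeptide entering the ER is met by BiP, the Hsp70 chaperone encoded by Hspa5, and by GRP94, the Hsp90 family member encoded by Hsp90b1. Protein disulfide isomerases form and rearrange its disulfide bonds, and the Ero1 oxidases reoxidize those isomerases. When unfolded protein accumulates, the membrane sensors IRE1 (Ern1), ATF6 (Atf6) and PERK (Eif2ak3) signal to the nucleus and the ribosome. IRE1 splices Xbp1 mRNA, which yields an active transcription factor. ATF6 is cleaved in the Golgi to release another, and PERK phosphorylates eIF2alpha, which slows translation while favouring that of ATF4. ATF6 and XBP1 raise chaperone and ERAD genes through the ER stress element in their promoters. These arrays measured mRNA abundance, so the activity of a sensor was not measured, and the Xbp1 value does not separate spliced from unspliced mRNA.

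The promoters are shown first because the ER stress element is the sequence by which this response is classically wired. RefSeq promoters on GRCm38.p6 span 250 bases before to 50 bases after the annotated start, and 29 of the 34 listed genes had an entry. The element was searched on both strands as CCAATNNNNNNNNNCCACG, and it occurred in 39 of 32851 promoters (0.119%). Among the 29 listed genes it occurred in 10 (34.5%), of which Hsp90b1 held a pair. The related element II was searched on both strands as ATTGG and CCACG parted by 1 base of any kind, and it occurred in 12 promoters (0.0365%), among them those of the listed genes Dnajb11 and Herpud1 (6.9%). The matches are printed here in the orientation of the motif, 5′ to 3′, with the fixed letters in capitals, to show what the carriers share and how their spacers differ. None of these elements overlapped another.
Hspa5: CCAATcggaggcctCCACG
Hsp90b1, farther element: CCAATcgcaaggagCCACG
Hsp90b1, nearer element: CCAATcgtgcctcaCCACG
Calr: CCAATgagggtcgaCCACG
Creld2: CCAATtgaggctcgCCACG
Pdia6: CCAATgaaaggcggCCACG
Ero1b: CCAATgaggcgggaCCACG
Canx: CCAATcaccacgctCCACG
Dnajc3: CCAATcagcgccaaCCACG
Syvn1: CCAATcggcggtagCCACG
Derl3: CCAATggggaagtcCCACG
Dnajb11, element II: ATTGGcCCACG
Herpud1, element II: ATTGGgCCACG

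The promoters of Hspa5 and Herpud1 are given whole because these genes are the textbook reporters of the response. Each holds an exact match to one of the element types. The Hspa5 promoter lies at chr2:34771840-34772139 on the plus strand, and the Herpud1 promoter at chr8:94386179-94386478, also on the plus strand. The capitals mark the ER stress element in the first and element II in the second. Only exact matches to the fixed letters were counted, so sites close to a motif are left unmarked. The Herpud1 promoter, for example, also holds ccaatggatggcagccaca, which departs from the ER stress element in its last letter.
Hspa5 promoter: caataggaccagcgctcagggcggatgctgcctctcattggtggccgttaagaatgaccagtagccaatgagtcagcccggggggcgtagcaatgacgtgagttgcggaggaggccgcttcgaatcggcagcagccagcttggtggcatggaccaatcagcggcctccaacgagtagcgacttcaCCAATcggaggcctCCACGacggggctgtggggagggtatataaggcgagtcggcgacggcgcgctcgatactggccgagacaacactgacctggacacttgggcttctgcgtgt
Herpud1 promoter: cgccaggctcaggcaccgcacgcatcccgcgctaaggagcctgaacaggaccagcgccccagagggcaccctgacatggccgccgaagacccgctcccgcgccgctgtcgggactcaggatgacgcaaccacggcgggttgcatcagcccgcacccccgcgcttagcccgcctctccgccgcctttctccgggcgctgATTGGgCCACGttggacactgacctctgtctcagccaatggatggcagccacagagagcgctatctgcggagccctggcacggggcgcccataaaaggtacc

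Of the shorter motifs searched on both strands, the XBP1 core TGACGTG occurred in 2.01% of promoters and, among the listed genes, in that of Hspa5. The ATF4 composite core TGATGNAA occurred in 3.97% of promoters and, among the listed genes, in that of Herpud1. A match is a run of letters, and no binding was measured here.

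Levels are the authors' log2 values, and a change subtracts the mean of the arrays with glutamine from that of the arrays without it, on the same log2 scale. Between 695 and 887 values per array exceeded 16, so a change is given as a log2 difference and not as a fold. A gene is said to have risen or fallen where limma gave an adjusted p under 0.05, with Benjamini-Hochberg adjustment over all 30701 genes. The array medians over all probe sets were 4.33, 4.38 and 4.35 without glutamine, against 4.20, 4.18 and 4.21 with it. Alternative scalings that remove this offset are therefore set beside the main counts. T cell markers stood at similar array means of 14.01 to 14.08 without glutamine and 13.95 to 14.08 with it, over 6 of 7 markers, of which Cd3d rose and Thy1 fell. After quantile normalization the bright markers Cd3e and Cd4 also passed as lower, at -0.42 and -0.52 (limma adjusted p = 0.0328 and 0.00637). Neither of them passed after centring, and Cd3g and Cd28 passed under neither rescaling. The TH17 markers Il17a, Il17f, Il23r and Ccr6 all fell, with array means of 8.17 to 8.54 without glutamine and 12.32 to 12.92 with it. Plasma cells and B cells, which are rich in ER, had 8 of 9 markers measured, at array means of 4.81 to 4.92 without glutamine and 4.60 to 4.71 with it. One of those markers, Pou2af1, rose by 1.21 log2, and Jchain, Sdc1, Mzb1, Cd79a, Cd79b, Ms4a1 and Tnfrsf17 lay near or below the array medians. In bulk RNA, fewer cells of a type and less RNA per cell cannot be told apart, and the part of the TH17 difference in the ER values was not tested.

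Of the 32 measured genes, 16 fell, against a background of 13% of all genes, and 2 rose, against a background of 9.3%. The other 14 did not pass the test. The median change was -0.32 log2, against 0.060 over all genes, and 27 of the 32 changes were negative. The arrays of the groups did not overlap for 19 genes with the cultures without glutamine below and for 3 genes with them above, where 18.8% and 25% of all genes were so placed. The medians of the 32 genes were 10.35, 10.32 and 10.13 log2 on the arrays without glutamine and 10.74, 10.79 and 10.55 on those with it.

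The mean level of every measured gene of the list lay above the median level of all genes, for Derl3 only slightly. When the test was limited to the 15350 genes above that level, 26.6% of them were lower and 15.8% higher, and the same 16 and 2 listed genes passed. The median change over those 15350 genes was -0.059 log2. Among the 16 brighter listed genes, with mean levels of 10.44 to 15.36 log2, 11 fell and the remaining 5 did not pass. Among the 16 dimmer ones, with mean levels of 5.03 to 10.42 log2, 5 fell and 2 rose. The shares of all genes within these ranges of level were not computed. The limit to genes above the median level therefore does not match the listed genes in level. After quantile normalization 19 listed genes were lower and 2 higher, where 17.1% and 4.74% of all genes were. After centring each array on its median 22 were lower and no listed gene was higher by limma, where 20% and 3.96% of all genes were. At an unadjusted p under 0.05 the centred values placed 2 listed genes higher. Both higher calls were lost on centring, and none of the 16 lower calls was lost under either rescaling.

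**Figure D1:**
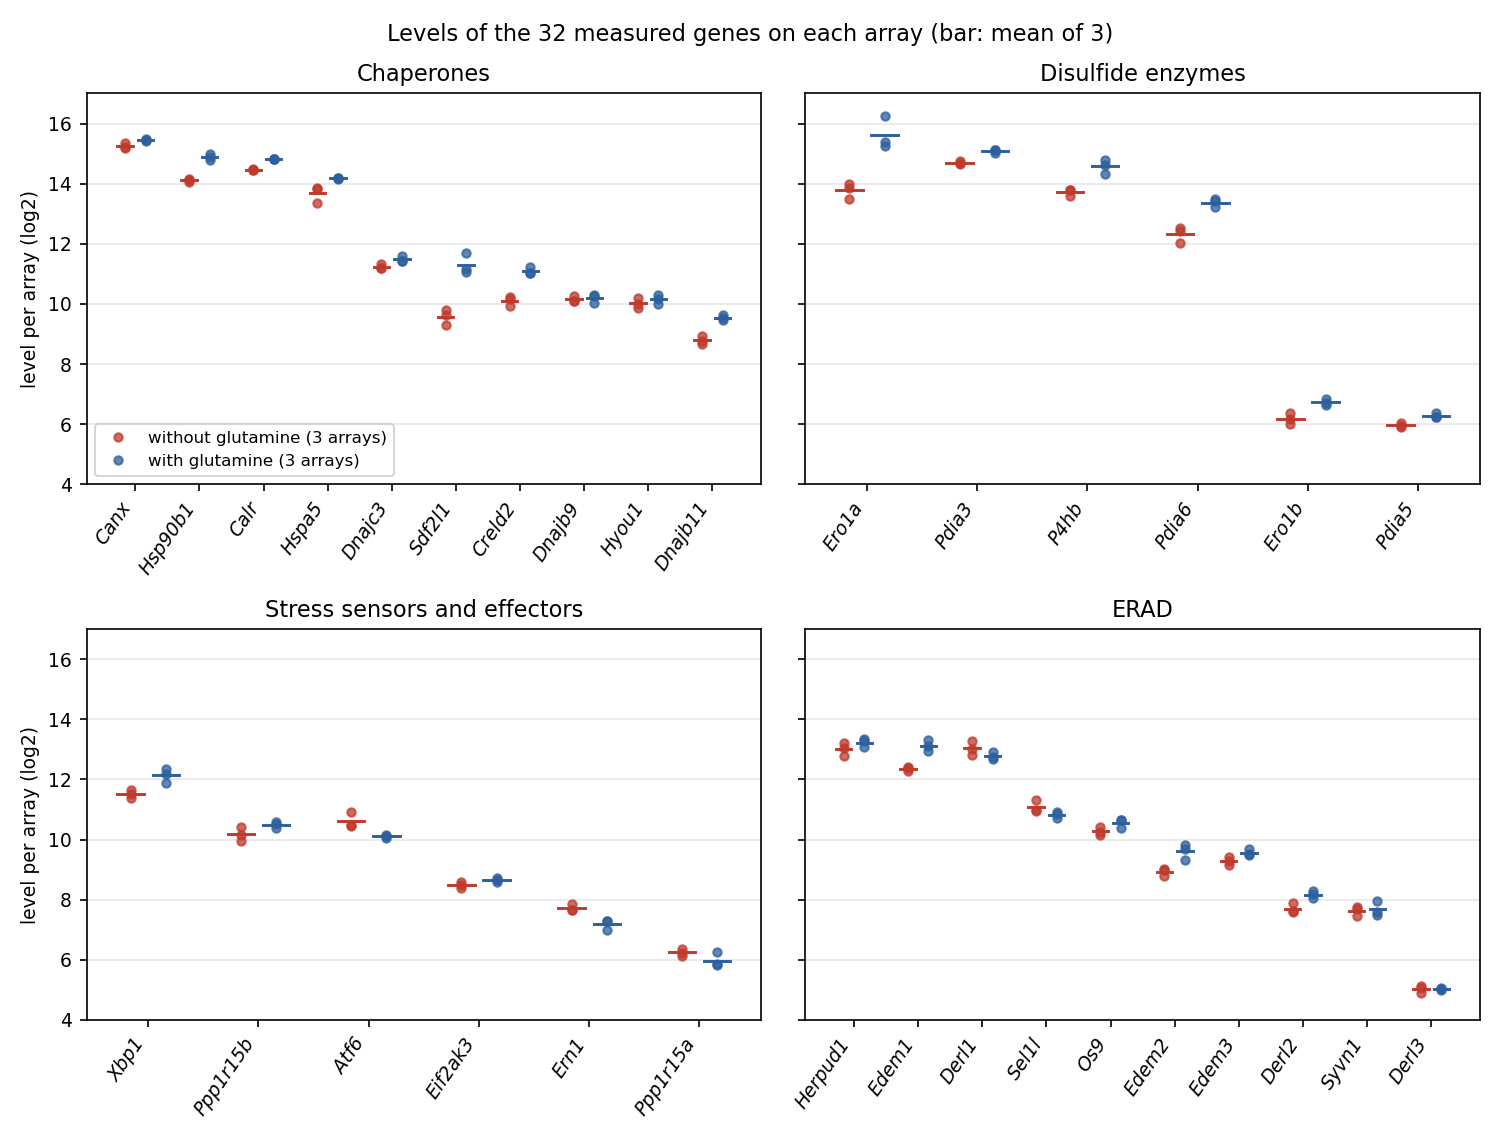
Levels of the 32 measured genes on each array (log2, vertical axis) by role group, with red points for the 3 arrays without glutamine and blue points for the 3 arrays with it. Bars mark group means. In Ero1a and Sdf2l1 the red points stand well below the blue ones, whereas those of Dnajb9, Hyou1 and Derl3 lie at similar heights.

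Among the chaperones, 6 of the 10 measured fell (60%) and 4 did not pass. Of genes above the median level, 26.6% were lower and 15.8% higher. The median change of the chaperones was -0.43 log2. The largest change belonged to Sdf2l1, a component of ER chaperone complexes that works with J-domain proteins. Sdf2l1 stood at 9.79, 9.65 and 9.30 log2 without glutamine and at 11.69, 11.06 and 11.16 log2 with it. The groups were more than 1 log2 apart at their nearest arrays, and the change was -1.73 ± 0.20 (SE, limma adjusted p = 0.00203). Its RefSeq promoter held no match to any of the motifs searched.

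Creld2, an ER-resident protein known as an ER stress-inducible gene, had 10.18, 10.22 and 9.93 log2 without glutamine and 11.23, 11.04 and 11.03 log2 with it. Every array without glutamine was below every array with it, and the change was -0.99 ± 0.11 (SE, limma adjusted p = 0.00159). Hsp90b1, the GRP94 gene, had 14.17, 14.12 and 14.04 log2 without glutamine and 14.88, 14.98 and 14.80 log2 with it. The arrays of a group lay close together and the groups apart, with a change of -0.78 ± 0.08 (SE, limma adjusted p = 0.00121).

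Hspa5, the BiP gene, had 13.85, 13.83 and 13.35 log2 without glutamine and 14.20, 14.20 and 14.15 log2 with it. The third array without glutamine was the lowest, and the groups did not overlap. The change was -0.51 ± 0.14 (SE, limma adjusted p = 0.0438). This call was narrow. It was kept without array 3 of the cultures without glutamine (change -0.35, adjusted p = 0.0334) and lost without any one of the other 5 arrays, with adjusted p up to 0.116. Over all settings tried its adjusted p ran between 0.0133 and 0.125.

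The remaining chaperones that fell were Dnajb11 and Calr. Dnajb11, a BiP co-chaperone with a J domain, averaged 8.79 ± 0.14 log2 without glutamine and 9.54 ± 0.09 log2 with it (SD, n = 3 each, limma adjusted p = 0.00305). Calr, the lectin chaperone calreticulin, had 14.46, 14.48 and 14.45 log2 without glutamine and 14.82 on all 3 arrays with it, a change of -0.36. Its small difference exceeded a very small spread between arrays (limma adjusted p = 0.00795).

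The 4 chaperones that did not pass had negative changes. Canx, the membrane-bound lectin chaperone calnexin, averaged 15.25 ± 0.10 log2 without glutamine and 15.46 ± 0.03 log2 with it (SD, n = 3 each). Its change of -0.21 had an adjusted p of 0.0934 by limma, became -0.53 after quantile normalization and then passed (adjusted p = 0.00507). Dnajc3, a co-chaperone also known as an inhibitor of PERK, changed by -0.24 (limma adjusted p = 0.0821) and passed after either rescaling. Hyou1, a BiP nucleotide exchange factor, changed by -0.14, and Dnajb9, a co-chaperone that restrains IRE1, by -0.03, with limma adjusted p of 0.394 and 0.834.

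All 6 measured disulfide enzymes fell, with a median change of -0.70 log2, where 26.6% of genes above the median level were lower. Ero1a, the oxidase listed as Ero1l that supplies oxidizing equivalents to the isomerases, had the most negative change of the list when all arrays were used. It had 14.00, 13.87 and 13.50 log2 without glutamine and 15.39, 16.24 and 15.25 log2 with it. The second array with glutamine was the highest and lay above 16, and the nearest arrays of the groups were still more than 1 log2 apart. The change was -1.84 ± 0.27 (SE, limma adjusted p = 0.00517), and leaving out any single array kept the call. Without the second array with glutamine the change was -1.53, and that of Sdf2l1 was then -1.85, so the order of these genes turned. Its relative Ero1b, listed as Ero1lb, was far dimmer and averaged 6.18 ± 0.19 log2 without glutamine and 6.72 ± 0.10 log2 with it (SD, n = 3 each, limma adjusted p = 0.018).

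Pdia6, a disulfide isomerase known to bind BiP and IRE1, had 12.52, 12.43 and 12.04 log2 without glutamine and 13.41, 13.48 and 13.22 log2 with it. No arrays of the groups overlapped, and the change was -1.04 ± 0.14 (SE, limma adjusted p = 0.00375). P4hb, the classical protein disulfide isomerase, had 13.79, 13.78 and 13.59 log2 without glutamine and 14.61, 14.79 and 14.33 log2 with it. It too was lower on every array without glutamine, by -0.86 ± 0.13 (SE, limma adjusted p = 0.00549). Pdia3, the isomerase that partners calnexin and calreticulin, changed by -0.39 (limma adjusted p = 0.0101). Pdia5, the dimmest of the group and known in human cells to act on ATF6 disulfides, changed by -0.31 (limma adjusted p = 0.0317). The calls of Ero1b and Pdia5 were lost without some single arrays, and those of the other 4 held without any one array. For Pdia5 these were arrays 1 and 2 of either group (adjusted p up to 0.103), and for Ero1b array 2 without glutamine and arrays 1 and 2 with it (adjusted p up to 0.0653).

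**Figure D2:**
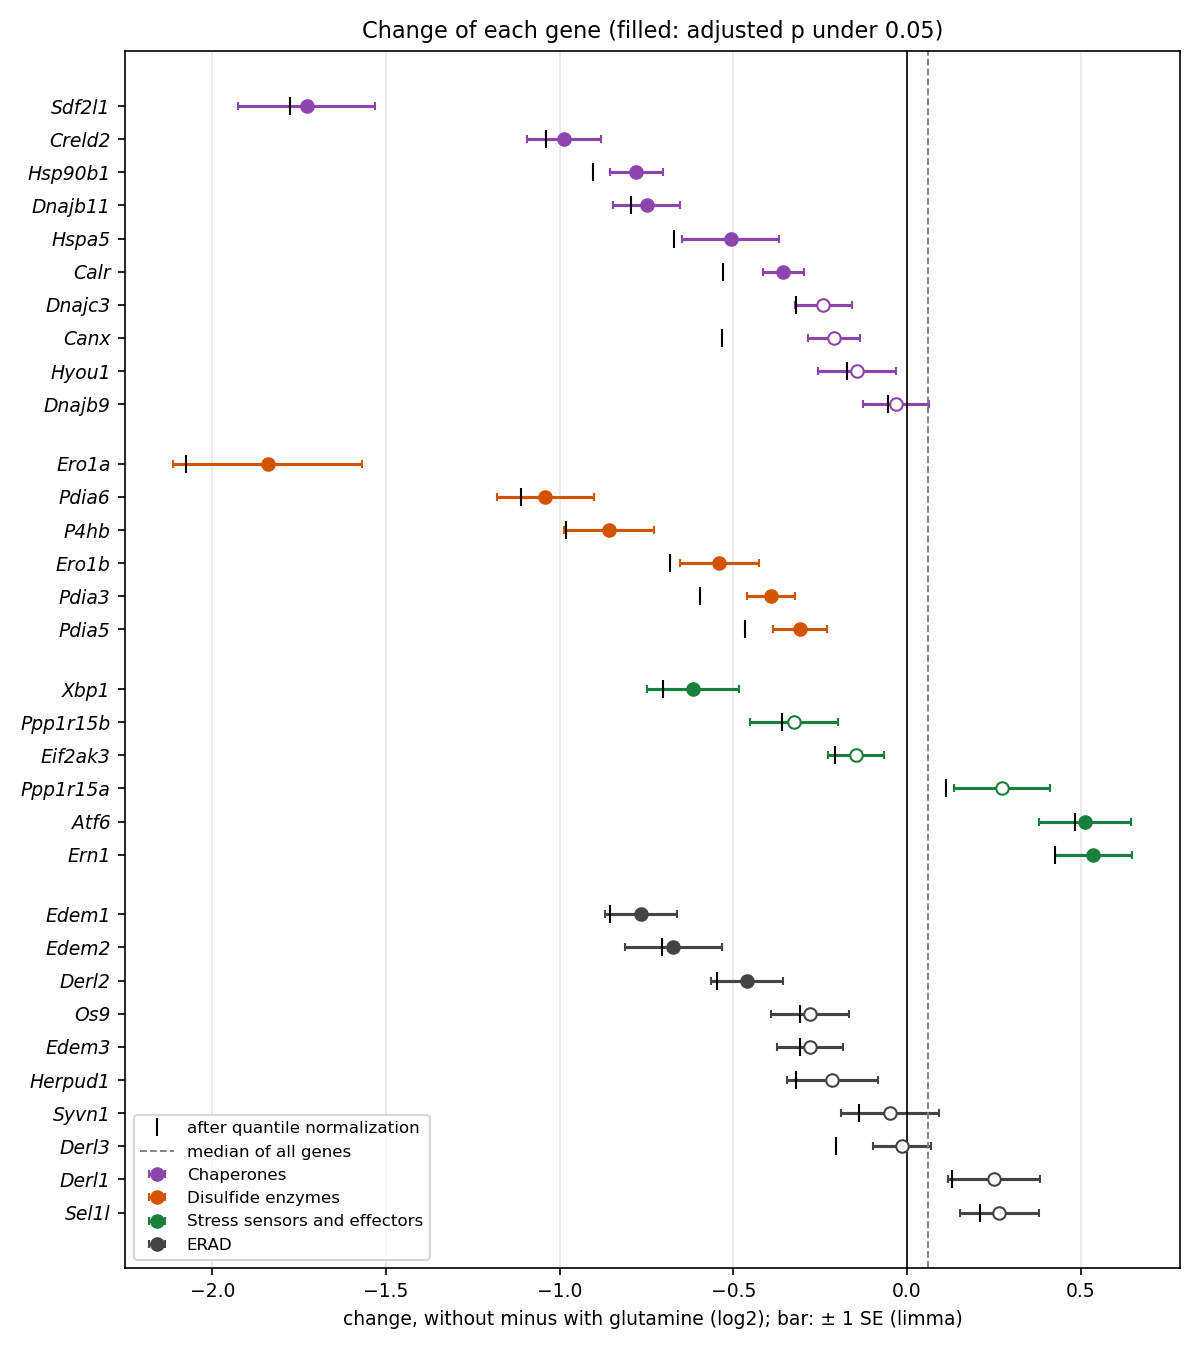
Change of each gene, without minus with glutamine (log2, horizontal axis), by role group, with bars of 1 standard error from limma. Filled points passed the test, black ticks give the change after quantile normalization, and the dashed line is the median of all genes at 0.060. All disulfide enzymes are filled and left of 0, and the stress sensors lie on both sides.

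The stress sensors and effectors went in both directions. Of 6 genes, 1 fell (16.7%), 2 rose (33.3%) and 3 did not pass, and their median change was 0.063 log2. Of all genes above the median level, 26.6% were lower and 15.8% higher. Xbp1 fell, with 11.39, 11.65 and 11.50 log2 without glutamine and 12.17, 12.34 and 11.89 log2 with it. The groups did not overlap and the change was -0.62 ± 0.13 (SE, limma adjusted p = 0.0187). Leaving out array 1 or 3 without glutamine, or array 1 or 2 with it, lost the call, with adjusted p up to 0.0596.

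The transcripts of the sensors IRE1 and ATF6 were higher. Ern1 had 7.85, 7.66 and 7.66 log2 without glutamine and 6.98, 7.29 and 7.29 log2 with it. The groups stood apart, and the change was 0.54 ± 0.11 (SE, limma adjusted p = 0.0172). Atf6 had 10.93, 10.46 and 10.48 log2 without glutamine and 10.07, 10.11 and 10.15 log2 with it. Its first array without glutamine was the highest, all 3 stood above those with glutamine, and the change was 0.51 ± 0.13 (SE, limma adjusted p = 0.0357). Neither rise passed after centring, where Ern1 changed by 0.38 (adjusted p = 0.0575) and Atf6 by 0.36 (adjusted p = 0.12). After quantile normalization both passed, with adjusted p of 0.0161 and 0.0269. Without array 1 of the cultures without glutamine Ern1 had an adjusted p of 0.0521. Atf6 passed without that array and failed without any one of the other 5 (adjusted p up to 0.097).

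Eif2ak3, the PERK gene, had 8.39, 8.50 and 8.60 log2 without glutamine and 8.64, 8.72 and 8.58 log2 with it. The groups overlapped, and the change of -0.15 had a limma adjusted p of 0.238. After centring it was -0.30 and passed (adjusted p = 0.0398). Ppp1r15a, the stress-induced GADD34 subunit that directs a phosphatase to eIF2alpha, had 6.37, 6.24 and 6.14 log2 without glutamine and 6.27, 5.85 and 5.81 log2 with it. The high first array with glutamine overlapped the other group, and the change of 0.27 had a limma adjusted p of 0.203. Without that array the adjusted p was 0.0371. Ppp1r15b, the constitutive counterpart of GADD34, averaged 10.17 ± 0.23 log2 without glutamine and 10.50 ± 0.10 log2 with it (SD, n = 3 each, limma adjusted p = 0.115), and passed as lower after centring (adjusted p = 0.043).

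Of the 10 ERAD genes, 3 fell (30%) and 7 did not pass, with a median change of -0.25 log2. That share is near the 26.6% of genes above the median level that were lower. Those that fell were 2 of the 3 Edem genes, whose products act on the mannose residues of misfolded glycoproteins, and Derl2, a derlin of the retrotranslocation machinery. Edem1 had 12.39, 12.40 and 12.27 log2 without glutamine and 13.11, 13.31 and 12.96 log2 with it. The groups were well apart, and the change was -0.77 ± 0.10 (SE, limma adjusted p = 0.00375). Edem2 had 8.79, 9.01 and 8.99 log2 without glutamine and 9.67, 9.82 and 9.32 log2 with it. Its groups did not overlap either, with a change of -0.67 ± 0.14 (SE, limma adjusted p = 0.0173). Edem3 changed by -0.28, with no overlap of arrays but a limma adjusted p of 0.0816, and passed after quantile normalization (adjusted p = 0.0482) and after centring (adjusted p = 0.0258).

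Derl2 had 7.88, 7.59 and 7.64 log2 without glutamine and 8.18, 8.27 and 8.04 log2 with it. All arrays without glutamine were lower, and the change was -0.46 ± 0.10 (SE, limma adjusted p = 0.0229). Edem2 failed the test without array 1 of either group or array 2 with glutamine (adjusted p up to 0.0556). Derl2 failed it without array 2 or 3 without glutamine or array 1 or 2 with it (adjusted p up to 0.0801). Its relatives did not pass: Derl1 changed by 0.25 (limma adjusted p = 0.222), and Derl3 was dim in both groups at 5.02 ± 0.13 log2 without glutamine and 5.04 ± 0.03 log2 with it (SD, n = 3 each).

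Herpud1, an ERAD scaffold and a common reporter of ER stress, had 13.21, 13.05 and 12.77 log2 without glutamine and 13.33, 13.27 and 13.08 log2 with it. The groups overlapped, and the change of -0.21 ± 0.13 did not pass (SE, limma adjusted p = 0.278). The ubiquitin ligase Syvn1 changed by -0.05 (limma adjusted p = 0.831). Its partner Sel1l had a positive change of 0.27 with no overlap of arrays (limma adjusted p = 0.146). The lectin Os9, which passes glycoproteins to that ligase, changed by -0.28 (limma adjusted p = 0.125) and passed after centring (adjusted p = 0.0339).

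The listed genes with and without an exact match to the ER stress element were set side by side, with no test of the difference. Of the 10 listed genes with it, 6 fell, with a median change of -0.43 log2. Of the 18 tested genes with a promoter entry and no such match, 10 fell and 1 rose, with a median of -0.35. These 18 include Dnajb11 and Herpud1, which carry element II, and may include genes with inexact elements. They are therefore not a set free of such elements. Among 21 other tested genes that carry the element in the RefSeq promoter, 5 were lower and 1 higher, with a median of 0.051. Most of these 21 were dim, with mean levels below the median level of all genes (4.68 log2), whereas every listed gene lay above it. The median of 0.051 is therefore mostly that of dim genes. The 5 that fell lay above that level. They were Adcy3, Xlr3a, Xlr3b, Xlr3c and Alg12, a mannosyltransferase of glycan assembly in the ER, at -0.36 (limma adjusted p = 0.0158). The brighter carriers Hnrnpa3 and Pan2 did not pass. Acnat2, which rose, averaged 4.77 log2 without glutamine and 4.38 log2 with it.

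**Figure D3:**
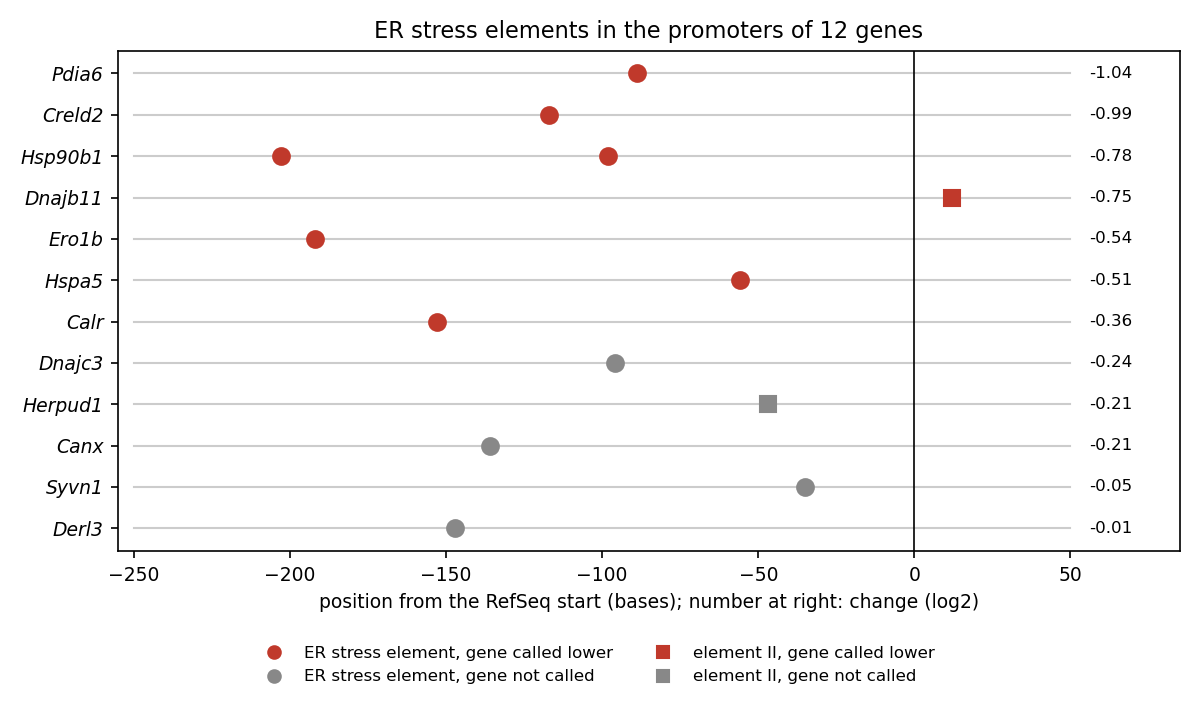
Position of the ER stress elements (circles) and elements II (squares) in 12 promoters, by the middle of each element in bases from the RefSeq start on the horizontal axis, with the change of each gene in log2 at the right. Red marks genes that were lower without glutamine and grey those that did not pass. Hsp90b1 has a pair of elements at -203 and -98, and element II of Dnajb11 lies at 12, after the start.

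Further ER genes, in 7 lists drawn up around the same pathway, showed more falls than rises. Of 103 measured of 110, 39 fell and 8 rose, with a median change of -0.24 log2, beside the backgrounds of 13% and 9.3% of all genes. In the test limited to genes above the median level, 96 of these genes remained. Of them 43.8% were lower and 11.5% higher, against 26.6% and 15.8% of all genes so tested. After quantile normalization the counts were 46 lower and 6 higher, where 17.1% and 4.74% of all genes were. After centring they were 56 lower and 3 higher, where 20% and 3.96% of all genes were. Among 14 other thiol oxidoreductases, 7 fell and 7 did not pass. Txndc5, a disulfide isomerase with thioredoxin domains, averaged 7.85 ± 0.11 log2 without glutamine and 9.22 ± 0.19 log2 with it (SD, n = 3 each, change -1.37, limma adjusted p = 0.000684). Prdx4, the ER peroxiredoxin, changed by -1.23 (limma adjusted p = 0.00131) and the membrane oxidoreductase Tmx1 by -0.72 (limma adjusted p = 0.00551).

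Genes for bringing proteins into the ER and glycosylating them also fell in part. Of 16 translocon and signal peptidase genes, 6 fell (37.5%) and 1 rose (6.25%), with a median of -0.31 log2. All 16 lay above the median level of all genes, where 26.6% of genes were lower and 15.8% higher. The translocon-associated Ssr1 changed by -1.11, the channel subunit Sec61a2 by -1.05 and the signal peptidase subunit Spcs2 by -0.87. Of 11 oligosaccharyltransferase genes, which all lay above that level too, 6 fell (54.5%) and 1 rose (9.09%), with a median of -0.35. The catalytic subunit Stt3b averaged 13.77 ± 0.10 log2 without glutamine and 14.69 ± 0.06 log2 with it (SD, n = 3 each, change -0.91, limma adjusted p = 0.000749). Ddost changed by -0.78 and Rpn1 by -0.77.

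The remaining lists were smaller in median change. Of 15 further chaperones and prolyl isomerases, 4 fell (26.7%) and 11 did not pass, with a median of -0.12 log2. Cnpy4 changed by -0.79, Hspa13 by -0.78 and the prolyl isomerase Fkbp7 by -0.53. Of 10 glycan-trimming and calnexin-cycle genes, 2 fell (20%) and 1 rose (10%), with a median of -0.0065. The lower shares of both lists lie near the 26.6% of genes above the median level that were lower. In the test limited to those genes, the lower shares were 36.4% for the chaperones and isomerases and 30% for the glycan-trimming list. The cargo lectins Lman1 and Lman2 changed by -0.69 and -0.47, and the Lman2 call was lost without any one of 5 arrays (limma adjusted p up to 0.134). Uggt2, a glucosyltransferase that marks unfolded glycoproteins, changed by 0.55, a rise that did not pass under either rescaling. Of 23 other ERAD factors, 10 fell (43.5%) and 2 rose (8.7%), with a median of -0.26. Selenos, a partner of derlins, changed by -0.80. Ngly1, which strips glycans from retrotranslocated proteins, and Ubac2 rose by 0.75 and 0.61 log2, and both passed under both rescalings.

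Among 14 other genes of unfolded protein response signalling, 4 fell (28.6%) and 3 rose (21.4%), with a median of -0.091 log2. These shares are near those of all genes above the median level, 26.6% lower and 15.8% higher. Ddit3, which encodes the transcription factor CHOP, had 10.82, 10.55 and 10.55 log2 without glutamine and 9.67, 9.74 and 9.73 log2 with it. The groups stood well apart, and the change was 0.93 ± 0.09 (SE, limma adjusted p = 0.00127), a call kept under both rescalings and without any single array. Atf4, whose protein acts upstream of Ddit3, had 11.53, 11.41 and 11.26 log2 without glutamine and 11.96, 11.85 and 11.75 log2 with it. It was lower on every array without glutamine, with a change of -0.46 ± 0.10 (SE, limma adjusted p = 0.0178). That call was lost without array 2 or 3 without glutamine or array 1 or 2 with it (adjusted p up to 0.06). Chac1, a glutathione-degrading enzyme and ATF4 target, changed by -0.86 (limma adjusted p = 0.00645). Trib3, a pseudokinase induced by ATF4 and CHOP, changed by 0.32 and did not pass (limma adjusted p = 0.0979). Creb3l2, an ER membrane-bound transcription factor, changed by 0.65 (limma adjusted p = 0.0259) and did not pass after centring. The Creb3l2 call was also lost without any one of 5 arrays (limma adjusted p up to 0.0824).

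**Figure D4:**
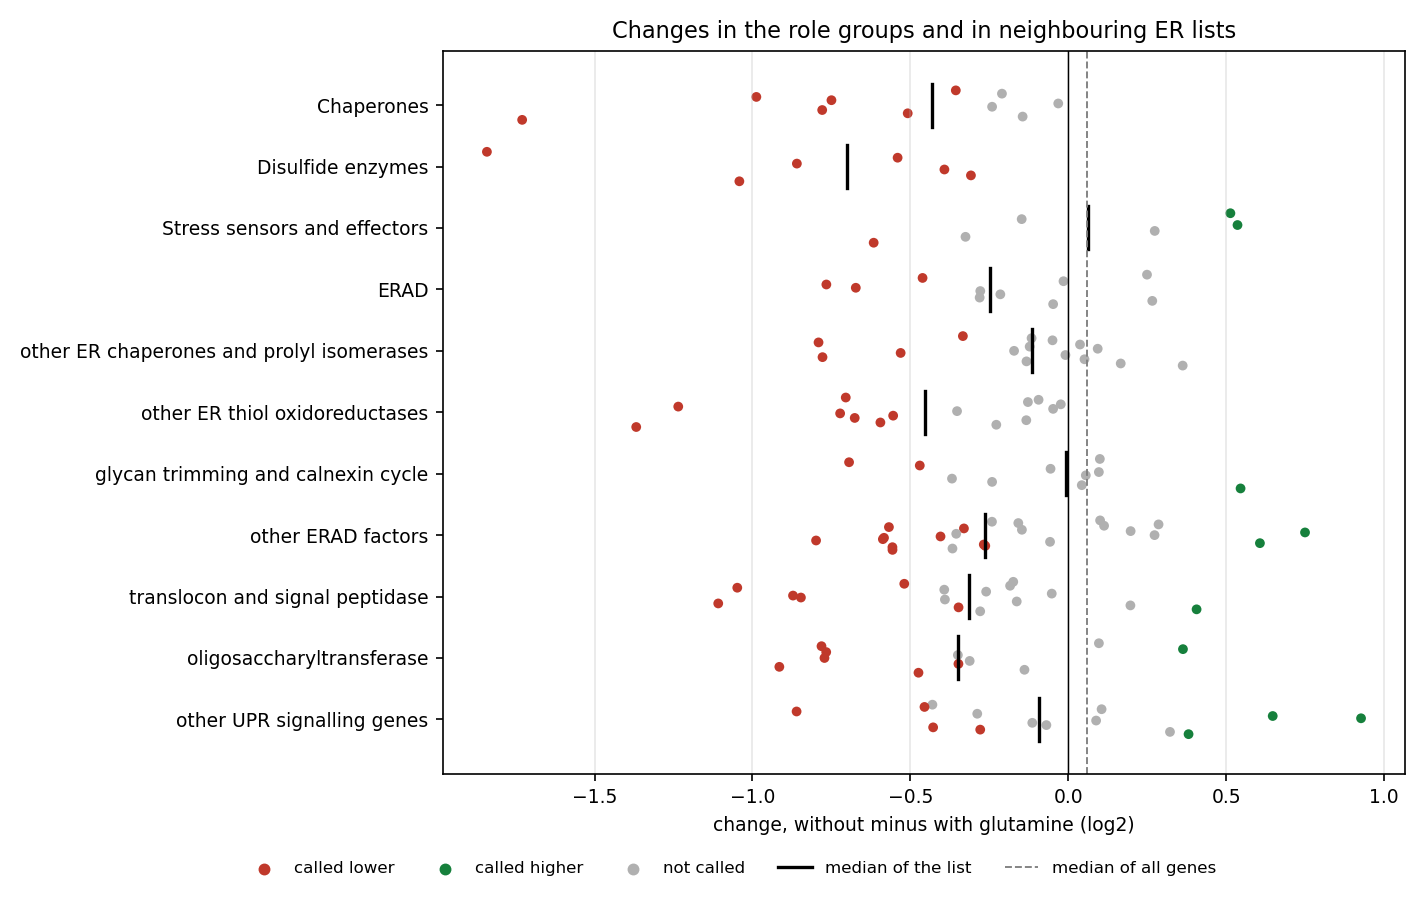
Changes of single genes, without minus with glutamine (log2, horizontal axis), in the 4 role groups and the 7 neighbouring ER lists. Red points were lower, green points higher and grey points did not pass. Black bars are list medians, which lie left of 0 in 10 of the 11 lists, and the dashed line is the median of all genes.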

How the data were processed

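RNA was profiled on Affymetrix arrays, 3 per group. Per the submitters' processing notes, the deposited values came from RMA in Transcriptome Analysis Console 4.0. Their log2 scale was read from the deposited values, and levels above 16 mean that a further step may have been applied. Of 65956 deposited probe sets, 31258 name 1 gene on the platform annotation, 1492 name several and 33206 are unnamed here. After 1121 symbols were updated through RefSeq, 30701 genes remained, each by its probe set with the highest mean (442 symbols had more than 1). limma 3.58.1 in R 4.3.3 (lmFit, eBayes) tested the cultures without against those with glutamine, two-sided, with Benjamini-Hochberg adjustment over all genes. The steps were tested on simulated data. The members and lists were chosen with earlier results of these data known. Per-array values were given for Hspa5, Hsp90b1, Ero1l, Xbp1, Atf6, Ern1, Eif2ak3, Herpud1 and Ppp1r15a and for the 3 genes past the threshold with the largest change in each role group. In each neighbouring list the 3 such genes were named, and Atf4, Ddit3 and Trib3 always. Calr, Alg12 and the carriers of the element named beside Alg12 were added after their values were seen. Replicate numbers were not treated as pairs. Marker lists for CD8 T cells, myeloid, NK and erythroid cells were also measured. The array means were 5.51 to 5.64 without and 5.87 to 6.02 with glutamine for CD8 T cells, 4.67 to 4.78 without and 4.66 to 4.81 with it for myeloid cells, and 3.62 to 3.70 without and 3.49 to 3.61 with it for NK cells. The one erythroid marker measured, Alas2, averaged 4.94 without and 4.68 with glutamine. Cd8b1 (-0.71) and Lyz2 (-1.66) fell, and Cd68 rose by 1.58 log2. Alternatives were quantile normalization, centring, a filter on dim genes, the mean over probe sets, a trended robust prior, array weights, no moderation, a replicate block, stricter thresholds and leaving out each array. Protein motifs were not analysed here.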

Additional observations from a re-analysis of the deposited data

How the results depend on the processing

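No called change reversed sign under any alternative. The median change of the 32 genes was -0.50 log2 after quantile normalization and -0.47 after centring, where the median of all genes was -0.048 and -0.095 (0.060 in the values as deposited), and ran between -0.37 and -0.30 when single arrays were left out. The count of 16 lower genes became 10 with the unmoderated statistic, 9 at an adjusted p under 0.01 and 3 where a change of at least 1 log2 was also asked, and 10 to 15 without single arrays. It was 10 without array 1 or array 2 of the cultures with glutamine. The count of 2 higher genes was 1 with the replicate block, 1 to 2 without single arrays, and 0 after centring, with the unmoderated statistic and under both stricter thresholds, where limma at an unadjusted p under 0.05 placed 2 higher. Of the stress genes, 3 were lower after centring, 0 with the unmoderated statistic (1 at an unadjusted p under 0.05) and 0 to 1 without single arrays. Their higher genes numbered 0 after centring, 0 unmoderated, 1 with the block and 1 to 2 without single arrays. Lower ERAD genes numbered 5 after centring, 1 unmoderated and 1 to 3 without single arrays. The neighbouring lists had 20 lower and 4 higher genes unmoderated, 3 higher after centring, and 24 to 36 lower and 5 to 7 higher without single arrays. With protein coding genes alone, an alternative chosen after seeing the data, 16 genes were lower and 2 higher. The replicate block took the call from Pdia5 (adjusted p = 0.0643) and Atf6 (adjusted p = 0.0574) and from no other listed gene. The deviations of same-numbered arrays correlated at 0.0656, -0.234 and 0.276, and those of differently numbered arrays between -0.334 and 0.3. With so few arrays a group, these values cannot decide whether equal numbers mark pairs. The numbers were not read as pairs. Of the 16 lower calls, 10 held without any single array. Array intensity gives no counting depth, and dim genes such as Derl3 lie close to the array medians.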

Other observations

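Genes of traffic between the ER and the Golgi were measured as well, in lists chosen after values of these data were seen. Of 23 measured genes of ER export and retrieval, 13 were lower without glutamine and 2 higher, with a median change of -0.38 log2, where 13% and 9.3% of all genes were. All 23 lay above the median level of all genes. In the test limited to such genes 13 were lower (56.5%) and 3 higher (13%), against 26.6% and 15.8% of the genes tested. Kdelr2, a receptor that returns escaped chaperones to the ER, averaged 13.30 ± 0.08 log2 without glutamine and 14.61 ± 0.07 log2 with it (SD, n = 3 each, change -1.31, limma adjusted p = 0.000217). Its relative Kdelr3 was dim, at 4.68 ± 0.09 log2 without glutamine and 5.73 ± 0.15 log2 with it, and changed by -1.05. Sar1b, the GTPase that starts COPII coat assembly, changed by -0.91 and the coat subunit Sec23b by -0.86. The cargo-binding subunits Sec24a and Sec24c rose by 0.54 and 0.50 log2, and neither passed after centring. Of the other cargo-binding subunits, Sec24d fell, with a change of -0.66 (limma adjusted p = 0.0273). That call was kept under both rescalings but lost without any one of the 3 arrays without glutamine (limma adjusted p up to 0.0952). Sec24b changed by -0.11 and did not pass.

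Of 9 ER-phagy receptors and reticulons, 2 were lower (22.2%) and 1 higher (11.1%), with a median change of -0.20 log2. These shares are near those of all genes above the median level, 26.6% lower and 15.8% higher. Atl3, an atlastin that shapes ER tubules, changed by -0.66 and the reticulon Rtn4 by -0.59. Ccpg1, an ER-phagy receptor, changed by 0.30, and that rise did not pass under either rescaling.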
